A study of Mus musculus with 26 samples.

Results

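The data compared here were 8 RNA-seq libraries of the choroid plexus (ChP) of the 4th ventricle, out of the 26 samples of the series, chosen by the circadian time (CT) on their labels. They lie on either side of the passage from subjective day into early night in mice with intact suprachiasmatic nuclei (SCN), the central clock. All 8 came from adult male C57Bl6J mice with sham surgery (Ctrl), sampled in constant darkness over 2 days after a light/dark cycle, with CT0 at the time when the lights would have come on. The subjective day group held CT4 and CT8 of the first cycle and CT28 and CT32 of the second (n = 4). The early night group held CT12, CT16, CT36 and CT40 (n = 4). Each time point was 1 mouse, so the spread within a group holds both the difference between mice and that between the times of day in it. The comparison asks which transcripts differ between the windows and whether they do so in both cycles. C57Bl6J mice whose SCN had been destroyed electrolytically (SCNx), also 1 mouse at each of the same 8 times, stood beside them.

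The ChP is a folded epithelium on a vascular core that secretes cerebrospinal fluid and holds a circadian clock of its own. In that clock, BMAL1 (gene Arntl) pairs with CLOCK or NPAS2 on E-box sequences and switches on Per, Cry, Rev-erb (Nr1d1, Nr1d2) and the PAR bZIP genes Dbp, Tef and Hlf. PER and CRY proteins then inhibit BMAL1, while REV-ERB and ROR receptors compete on a shared element to repress or activate Arntl. Glucocorticoids, whose release in nocturnal rodents is highest around the start of activity, act on many tissues through the glucocorticoid receptor.

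Library size was 42186473 to 46735993 estimated counts in the 8 Ctrl mice and 41807000 to 49527614 in the 8 SCNx mice. Levels are given as CPM, read counts relative to the library size, scaled for library composition with TMM. The sum of 10 markers of the ChP epithelium, Ttr among them, was 141958 to 166808 CPM in the day mice and 150863 to 162044 CPM in the night mice. A pair of Ctrl libraries stood apart. In CT16 the sum of 24 hepatocyte genes was 4161 CPM and in CT40 it was 79.3 CPM, against 17.1 to 20.5 CPM in the day mice, where 5 of the 24 genes were at 0. In CT4 the sum of 6 astrocyte markers was 787 CPM and that of 14 neuron and cerebellum markers was 464 CPM, against at most 103 and 161 CPM in the night mice. Among the SCNx mice, CT32 held 1054 CPM of astrocyte markers. In Ctrl, 6 endothelial markers summed to 168 to 288 CPM in the day mice and 117 to 267 CPM in the night mice. For 5 mural cell markers the sums were 189 to 369 CPM and 141 to 274 CPM. In both lists 0 markers had a higher mean in early night, and the CT40 mouse was the lowest of the 8. The cycles differed. The median log2 fold change of early night over day was 0.08 in cycle 1 and -0.63 in cycle 2 for the endothelial markers. For the mural cell markers it was -0.10 and -0.65. The part of these transcripts in the results was not tested. Counts of genes called between the windows, between neighbouring times and in each cycle are also given without CT4 and CT16.

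Between the windows, 1 of 13893 genes with a mean of at least 1 CPM passed the test, and it was Sult1a1, a sulfotransferase that conjugates phenols and catecholamines. This is 0.0072% of the genes tested (edgeR's quasi-likelihood test on the 8 libraries, Benjamini-Hochberg adjusted p under 0.05). At an unadjusted p under 0.05, 1127 genes were higher in early night, 8.11% of those tested, and 779 were lower, 5.61%. The count of calls depended on the tool, being 2 with limma-voom and 438 with the Wald test of DESeq2, 196 higher and 242 lower. Without CT4 and CT16 the quasi-likelihood test called 52 genes, 9 higher and 43 lower, and without CT16 alone it called 18. Leaving out CT40 gave 3 calls and leaving out CT4 gave 2, while each of the other 5 libraries left 1.

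Sult1a1 was at 18.8 at CT4, 18.2 at CT8, 17.8 at CT28 and 16.8 at CT32 CPM in subjective day. In early night it was at 32.6 at CT12, 36.2 at CT16, 31.3 at CT36 and 33.6 at CT40 CPM. The groups did not overlap in either cycle, and the night mean was 1.87-fold the day mean. The log2 fold change was 0.91 ± 0.06 (SE, adjusted p = 0.0023). The change was 0.91 in the first cycle and 0.92 in the second. In the 4 late night mice, CT0, CT20, CT24 and CT44, its level was 21.1, 31.4, 22.6 and 27.6 CPM, above every day mouse, and the CT20 mouse was within the early night range. Sult1a1 is also expressed in liver. Without CT4 and CT16 its log2 fold change was 0.89 with an adjusted p of 0.00072. In this fit the call held when any 1 of the 8 libraries was left out. It was lost in a fit that took its spread from all 24 Ctrl and SCNx libraries (adjusted p = 0.25), and in the time-of-day fit described below without CT8, CT12 or CT36 (adjusted p of 0.058, 0.055 and 0.057).

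Whether a difference returned on the next day was read between the cycles, which are separate mice. Within each cycle, the contrast was of 2 mice against 2, and no gene passed edgeR's test. An unadjusted p under 0.05 was found for 1119 genes in cycle 1 and 967 in cycle 2. Both contrasts came from a joint fit of the mice of both cycles, with a mean per cycle and window. Their p-values share a spread taken from both cycles, so the genes chosen in cycle 1 were not chosen independently of the cycle 2 mice. DESeq2 called 148 and 151 genes, and limma-voom 0 in either. A left-out library leaves 1 mouse in its group, which is CT4 without CT8 and CT16 without CT12. The cycle 1 calls were then mostly lower in early night without CT8 and all higher without CT12. Leaving out CT8 gave 396 calls in cycle 1 and leaving out CT12 gave 25, whereas in cycle 2 at most 1 gene was called when any library was left out. Without both CT4 and CT16 the counts were 0 in cycle 1 and 11 in cycle 2. Of the 1119 genes of cycle 1, 964 had the same sign in cycle 2, which is 86.1%, against 62.8% of all genes tested, and 260 of them also had an unadjusted p under 0.05 there. Leaving aside genes at over 10 times their own median in CT4 or CT16, it was 844 of 986, or 85.6%. The median fold change of the 1119 genes was 0.38 on the log2 scale in cycle 1, which chose them, and 0.18 along the same sign in cycle 2. A test of the difference between the cycles called no gene by edgeR, with 248 at an unadjusted p under 0.05, and 2 by DESeq2. Leaving out CT8 gave 69 calls of a difference, all in 1 direction, and leaving out CT12 gave 1.

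**Figure D1:**
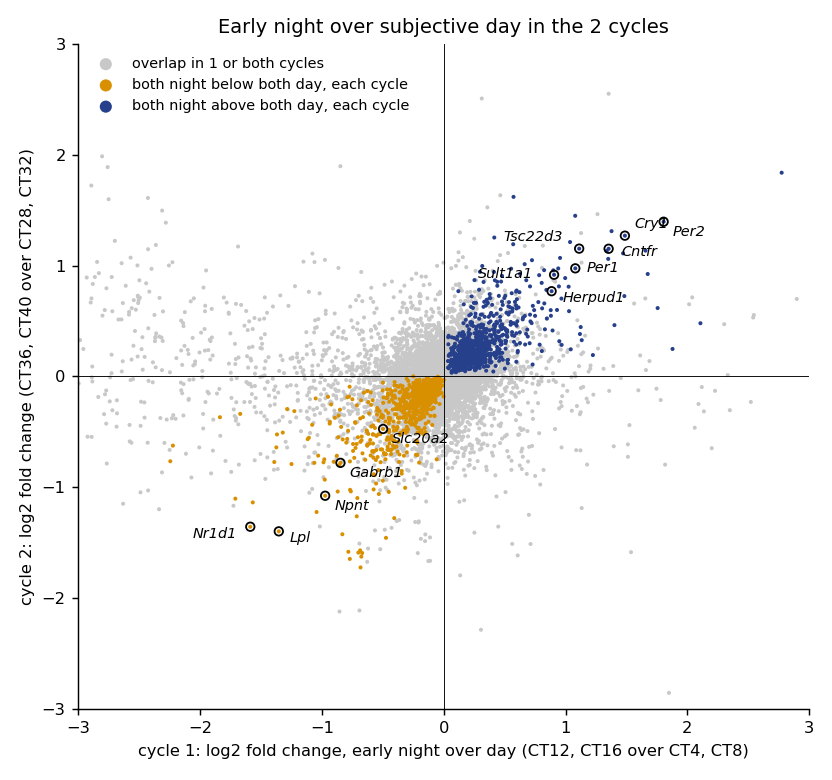
Log2 fold change of early night over subjective day for each gene in cycle 1 (horizontal axis) and cycle 2 (vertical axis). Blue points are the 896 genes with both night mice above both day mice in each cycle, orange points the 840 with both night mice below, grey points all others, and circled genes are named. 237 genes lie outside the plotted range of 3 log2 units.

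In 896 genes, 6.45% of those tested, both night mice lay above both day mice in each cycle, and in 840 genes, 6.05%, both lay below. Of the 145 genes at over 10 times their median in CT16, 20 were among these, and of the 227 in CT4, 3 were. Of 23 hepatocyte genes tested, 8 were among the 896, Alb and Fgb with them, and their part in the count was not tested. In bulk tissue, fewer cells of a kind and less RNA per cell cannot be told apart. The scatter of the cycles shows Per2, Cry1 and Tsc22d3 far out among the higher genes and Nr1d1, Lpl and Npnt among the lower.

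Because a clock gene can turn over within a window, a second fit gave each time of day its own mean, with the mouse 24 h later as its replicate, and compared the mean of CT12 and CT16 with that of CT4 and CT8. This fit was chosen after the first had been seen. It called 58 genes higher in early night, 0.417% of those tested, and 36 lower, 0.259%, and 78 of these 94 did not overlap in either cycle. Of the 94, 91 were also called without CT4 and CT16, where the count was 331 (130 higher, 201 lower). With a residual from 4 pairs of mice the count rests on single libraries. It was 0 without CT8, CT12 or CT36, 16 without CT4 or CT32, 41 without CT16, 174 without CT28 and 253 without CT40. DESeq2 called 642 genes in this design and limma-voom 54. The adjusted p of this edgeR fit is written below as the time-of-day adjusted p. For Per1, Tef and Tra2a the log2 fold change and SE printed below are also those of this fit. Most other fold changes of early night over day, with their SE, are those of the window fit, so SE are not comparable between genes. Apart from Sult1a1, the clock genes and those the study names in its results, the genes below were named after their values had been seen.

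Period and cryptochrome genes, the inhibitors of the loop, were, of all lists, the one with the largest share of members higher in early night without overlap. Of 5 tested, 4 did not overlap in either cycle, against 6.45% of all genes, and the median log2 fold change was 1.03 against 0.00 over all genes. Cry1 stood at 9.06, 8.32, 10.8 and 9.48 CPM at CT4, CT8, CT28 and CT32, and at 21.0, 27.3, 18.5 and 30.1 CPM at CT12, CT16, CT36 and CT40. All night mice lay above all day mice. The log2 fold change of Cry1 was 1.37 ± 0.16 (adjusted p = 0.068, time-of-day adjusted p = 0.0062), and without CT4 and CT16 the adjusted p was 0.044. In late night it was at 33.4 CPM at CT20 and 35.5 CPM at CT44, above all 4 early night mice. Per2 was at 8.92, 31.1, 11.5 and 31.8 CPM in day and 77.9, 60.4, 61.4 and 51.2 CPM in early night, in the same order of times. It was low in the mice of CT4 and CT28 and already higher at CT8 and CT32. Its log2 fold change of 1.61 ± 0.41 had an adjusted p of 0.19 and a time-of-day adjusted p of 0.0062. Per1 was at 18.8, 40.1, 22.5 and 42.4 CPM in day and 75.3, 47.8, 75.7 and 50.5 CPM in early night. Its highest mice were those of CT12 and CT36, with a time-of-day adjusted p of 0.0062 for a log2 fold change of 1.07 ± 0.07. Per3 overlapped between the windows, at 16.1, 36.7, 19.5 and 38.0 CPM in day and 52.7, 33.7, 42.6 and 32.1 CPM in early night (time-of-day adjusted p = 0.047). Cry2 was at 38.6, 38.8, 30.7 and 40.9 CPM and 53.8, 40.6, 51.0 and 45.4 CPM, a difference that did not pass either test.

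The promoters of 8 clock members are shown here because they hold a motif of the clock loop. Promoters without one, and those of genes outside the clock lists, are not printed. They are 250 bases before to 50 after the gene start, from RefSeq on GRCm38.p6, and 56 of the 71 genes considered had an entry. The motifs searched on both strands were the E-box CACGTG, the D-box as TTATGTAA, TTACGTAA or TTACATAA, the cAMP response element TGACGTCA and the ROR/REV-ERB element TAGGTCA. No motif is contained in another. Of all 32851 promoters in the table, 7.15% held the E-box, 1.06% a D-box, 1.79% the cAMP response element and 2.61% the ROR/REV-ERB element. Among the 56 genes, 8 held an E-box in at least 1 promoter and 2 each held one of the others. These are counts of genes, some with more than 1 promoter, and are not comparable with the shares, which are of promoters. Capitals mark the motif, which is an E-box in Per1 (chr11:69098699-69098998, plus strand), Cry1 (chr10:85185005-85185304, minus strand), Ciart (chr3:95882179-95882478, minus strand), Bhlhe41 (chr6:145865371-145865670, minus strand) and the upstream of the 2 starts of Tef (chr15:81802423-81802722, plus strand), both of which held one. It is a D-box in Per3 (chr4:151044616-151044915, minus strand), and the ROR/REV-ERB element in the downstream of the 2 starts of Arntl (chr7:113207261-113207560, plus strand) and Nfil3 (chr13:52980990-52981289, minus strand).
Per1: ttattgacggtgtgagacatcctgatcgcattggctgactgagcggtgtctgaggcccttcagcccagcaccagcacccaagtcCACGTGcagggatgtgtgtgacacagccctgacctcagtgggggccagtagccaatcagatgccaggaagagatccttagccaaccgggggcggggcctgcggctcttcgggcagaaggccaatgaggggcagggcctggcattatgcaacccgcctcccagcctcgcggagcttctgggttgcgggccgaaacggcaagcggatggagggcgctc
Cry1: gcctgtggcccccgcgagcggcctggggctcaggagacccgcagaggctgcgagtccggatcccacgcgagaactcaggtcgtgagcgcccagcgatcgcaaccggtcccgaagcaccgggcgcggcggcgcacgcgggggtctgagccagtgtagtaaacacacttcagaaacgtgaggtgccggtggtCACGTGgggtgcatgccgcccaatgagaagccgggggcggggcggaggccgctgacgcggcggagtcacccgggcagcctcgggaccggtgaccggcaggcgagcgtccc
Ciart: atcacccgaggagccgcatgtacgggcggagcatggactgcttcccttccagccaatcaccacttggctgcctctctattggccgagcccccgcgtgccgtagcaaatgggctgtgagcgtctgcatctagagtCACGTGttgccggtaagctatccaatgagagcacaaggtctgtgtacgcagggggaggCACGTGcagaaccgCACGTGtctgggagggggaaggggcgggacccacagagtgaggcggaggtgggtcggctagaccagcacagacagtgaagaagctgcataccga
Bhlhe41: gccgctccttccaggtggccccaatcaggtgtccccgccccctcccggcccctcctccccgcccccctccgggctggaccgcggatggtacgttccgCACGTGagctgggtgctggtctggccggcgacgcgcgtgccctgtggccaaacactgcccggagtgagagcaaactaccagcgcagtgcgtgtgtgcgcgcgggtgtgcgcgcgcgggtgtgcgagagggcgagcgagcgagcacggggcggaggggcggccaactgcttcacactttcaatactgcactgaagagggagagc
Tef: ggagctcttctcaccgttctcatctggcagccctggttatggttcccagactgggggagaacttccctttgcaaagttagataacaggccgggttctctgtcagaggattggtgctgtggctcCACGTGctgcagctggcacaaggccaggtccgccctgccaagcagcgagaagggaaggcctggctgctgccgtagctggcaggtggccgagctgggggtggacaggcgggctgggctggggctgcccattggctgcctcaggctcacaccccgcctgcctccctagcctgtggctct
Per3: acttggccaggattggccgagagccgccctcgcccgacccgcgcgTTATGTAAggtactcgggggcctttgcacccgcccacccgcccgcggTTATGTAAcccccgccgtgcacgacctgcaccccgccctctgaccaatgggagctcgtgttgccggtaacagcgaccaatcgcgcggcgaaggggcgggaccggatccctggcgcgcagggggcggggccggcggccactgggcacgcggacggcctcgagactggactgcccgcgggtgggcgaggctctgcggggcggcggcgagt
Arntl: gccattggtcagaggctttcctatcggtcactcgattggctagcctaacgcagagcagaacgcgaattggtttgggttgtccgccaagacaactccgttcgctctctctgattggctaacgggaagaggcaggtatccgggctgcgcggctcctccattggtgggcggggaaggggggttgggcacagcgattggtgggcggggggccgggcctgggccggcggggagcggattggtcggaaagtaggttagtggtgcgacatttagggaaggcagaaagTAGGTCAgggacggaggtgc
Nfil3: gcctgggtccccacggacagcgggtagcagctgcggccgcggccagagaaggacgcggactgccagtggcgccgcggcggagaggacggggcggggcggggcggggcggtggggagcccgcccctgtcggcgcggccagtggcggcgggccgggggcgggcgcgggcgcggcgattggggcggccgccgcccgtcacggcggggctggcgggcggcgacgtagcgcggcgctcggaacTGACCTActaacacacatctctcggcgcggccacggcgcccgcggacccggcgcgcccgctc
Ciart held the E-box at 3 places, and the Per3 promoter held the D-box at 2. Hlf, whose promoter is not printed, held the cAMP response element. Outside the clock lists, Bcl6, Fkbp5 and Hsph1 held an E-box, Wnt5b a D-box and Tra2a the cAMP response element, each in at least 1 promoter. Nr1d1, Nr1d2, Dbp, Cry2, Npas2, Clock, Rora, a second start of Per1 and the upstream start of Arntl had an entry without any of the motifs. A match is a description of the letters in this window and not evidence of a bound site.

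Among the receptors on the ROR/REV-ERB element, Nr1d1, the REV-ERB alpha gene, was at 73.4 at CT4, 92.9 at CT8, 73.9 at CT28 and 72.2 at CT32 CPM in day and at 41.8 at CT12, 12.9 at CT16, 49.5 at CT36 and 7.07 at CT40 CPM in early night. All night mice lay below all day mice, and the mice of CT16 and CT40 were the lowest. The log2 fold change was -1.48 ± 0.55 with an adjusted p of 0.29 in the window fit and -1.86 ± 0.19 with a time-of-day adjusted p of 0.02. Nr1d2 showed no difference of the window means, with a log2 fold change of 0.12 ± 0.20, but turned within both windows as described below. Rora had a log2 fold change of -0.17 ± 0.07. Rorb was at 4.74 CPM at CT4, the mouse with brain markers, and below 1 CPM in the other 7.

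For the activators, Npas2 was at 17.5, 6.11, 14.6 and 5.71 CPM in day and 5.37, 5.27, 4.90 and 6.29 CPM in early night. The mice of CT4 and CT28 were high and the other 6 lay below 7 CPM (time-of-day adjusted p = 0.035). Arntl was at 17.3, 2.95, 13.8 and 2.59 CPM in day and 2.57, 6.76, 1.99 and 7.47 CPM in early night, high at CT4 and CT28, low at CT8, CT32, CT12 and CT36, and between these at CT16 and CT40. Its window difference did not pass the test (adjusted p = 0.58). Clock was at 183, 159, 197 and 139 CPM in day and 108, 163, 102 and 147 CPM in early night, with the lowest mice at CT12 and CT36 (time-of-day adjusted p = 0.055). Arntl2 lay below the minimum of 1 CPM.

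PAR bZIP factors bind the D-box, which Nfil3 represses. Dbp was at 31.2, 106, 36.3 and 115 CPM in day and 129, 36.3, 136 and 34.8 CPM in early night, so that the windows shared the same range. The mice of CT8, CT12, CT32 and CT36 were high and those of CT4, CT16, CT28 and CT40 low, and the window log2 fold change was 0.24 ± 0.61. Tef was at 87.2, 147, 78.5 and 159 CPM in day and 203, 144, 202 and 140.5 CPM in early night, with a log2 fold change of 0.60 ± 0.05 and a time-of-day adjusted p of 0.01. Hlf and Nfil3 had log2 fold changes of 0.22 ± 0.19 and 0.49 ± 0.29, neither of which passed a test. Among the E-box repressors, Ciart was at 1.17, 6.601, 0.564 and 6.55 CPM in day and 16.2, 2.12, 17.4 and 1.92 CPM in early night, and its window log2 fold change of 1.36 ± 0.98 had an adjusted p of 0.57. Bhlhe41 was at 19.8, 42.9, 20.9 and 40.5 CPM in day and 34.2, 17.9, 40.2 and 17.7 CPM in early night, in the same order of times. As with Dbp, the lowest mice of both genes were those of CT4, CT16, CT28 and CT40.

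Of the 15 tested kinases, ligases and output genes of the clock, 5 were higher and 2 lower without overlap in either cycle, against 6.45% and 6.05% of all genes. Wee1, the kinase that holds back entry into mitosis, was at 6.64, 9.60, 6.79 and 11.5 CPM in day and 14.7, 14.2, 16.0 and 15.1 CPM in early night (log2 fold change 0.81 ± 0.17, time-of-day adjusted p = 0.02). Nampt, the rate-limiting enzyme of NAD salvage, was at 48.8, 55.8, 55.6 and 52.0 CPM in day and 58.8, 61.9, 61.99 and 60.5 CPM in early night. The groups did not overlap, but the log2 fold change of 0.21 ± 0.05 did not pass either test.

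**Figure D2:**
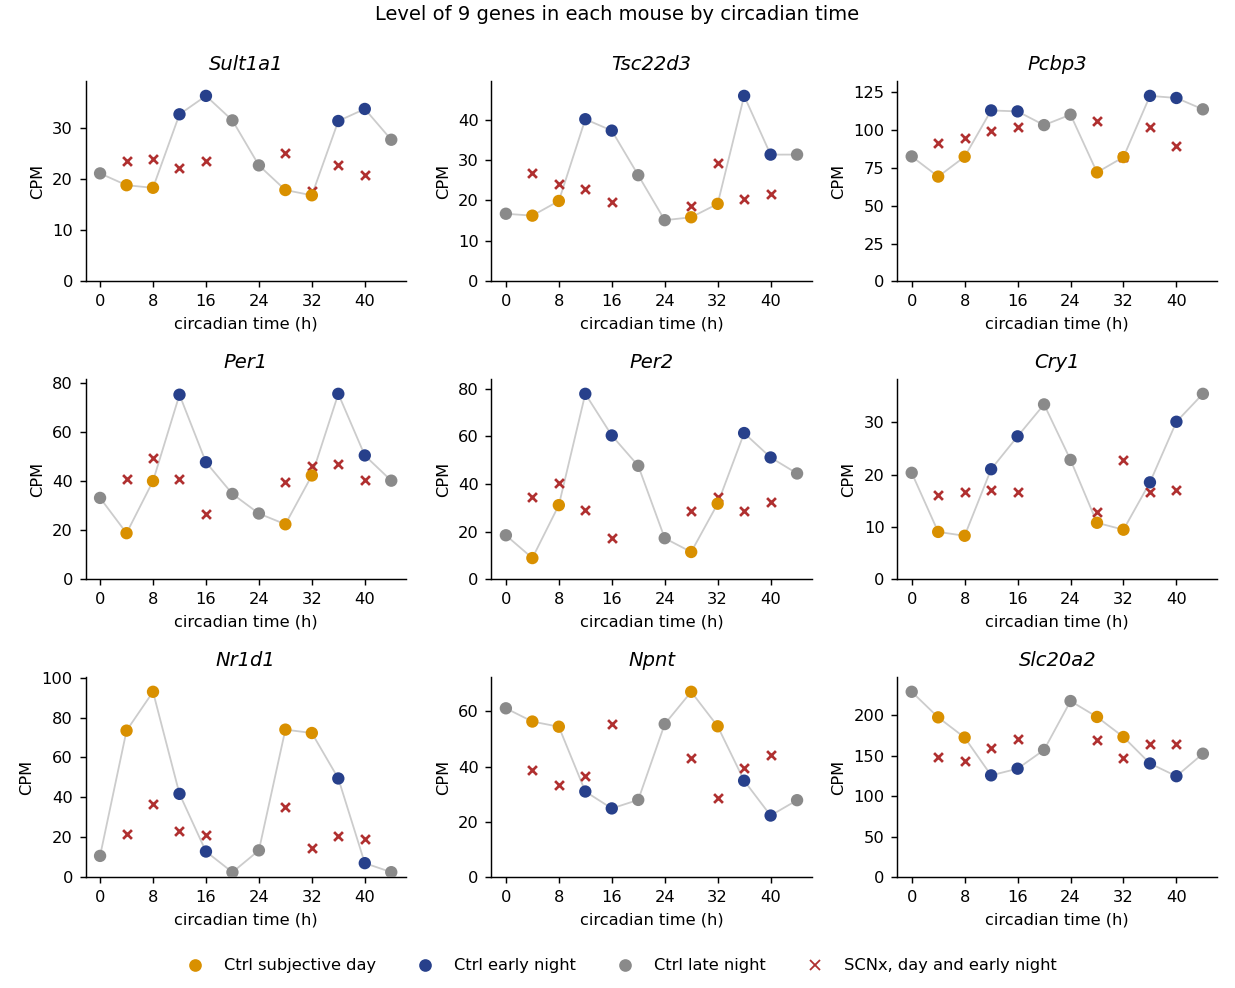
Level (CPM, vertical axis from 0) of 9 genes in each mouse against circadian time (hours). Orange, blue and grey points are Ctrl mice of subjective day, early night and late night joined by a line, and red crosses are SCNx mice of the day and early night times. The blue points of the genes in the upper 2 rows lie above the orange points of the same cycle, and those of Nr1d1, Npnt and Slc20a2 lie below.

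Neighbouring times of day were compared in the second fit, with 2 mice at each time. From CT4 to CT8, 7 genes rose, 0.0504% of those tested, and 4 fell, 0.0288%. They were Dbp, with a log2 change of 1.70 ± 0.09, Per2, with 1.61 ± 0.17, Bhlhe41, Per1, Tef, Nr1d2 and Coq10b. The genes that fell were Arntl, with -2.50 ± 0.19, Npas2, Rapgef5 and Leo1. The count was 600 without CT28, when CT4 alone stood for its time, 2 without CT4, 1 without CT16 or CT40 and 0 without CT8, CT12, CT32 or CT36.

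From CT8 to CT12, the step into subjective night, no gene passed edgeR's test, with 1010 at an unadjusted p under 0.05. DESeq2 called 171 genes and limma-voom 0, and edgeR called 34 without CT4 and CT16, 20 higher and 14 lower. The lowest adjusted p was 0.08, shared by Sult1a1 (0.89 on the log2 scale), Tsc22d3 (1.16) and Wnk4 (0.68), a kinase that regulates chloride cotransporters. From CT4 to CT8 the log2 changes of Sult1a1 and Tsc22d3 were -0.08 and 0.27, and from CT12 to CT16 they were 0.12 and -0.34.

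From CT12 to CT16, 19 genes rose, 0.137% of those tested, and 9 fell, 0.0648%. All 3 E-box repressors were among those that fell, Ciart with a log2 change of -3.07 ± 0.30, Bhlhe41 with -1.08 ± 0.09 and Bhlhe40 with -0.61 ± 0.07. Dbp changed by -1.91 ± 0.09, with an adjusted p of 0.0043, and Nr1d2, Wnk4, Herc3 and Slc7a5, a carrier of large neutral amino acids, were also among them. Arntl rose by 1.63 ± 0.19. When CT40 was left out, CT16 alone stood for its time, and most calls were then rises. Without CT4 and CT16 the count was 78, with 43 higher and 35 lower, without CT40 it was 228, and it was 12 without CT4, 6 without CT28, 4 without CT16, 3 without CT8 or CT32 and 0 without CT12 or CT36.

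Of those 19 that rose, 10 belonged to the list of endoplasmic reticulum (ER) chaperones, ER-associated degradation and the unfolded protein response (UPR), which had 47 tested members, of which 42 had a log2 change above 0, as did 6991 of all 13893 genes. Hspa5, the main ER chaperone (BiP), was at 1200.4 and 1323 CPM at CT4 and CT28, and at 765 and 934 CPM at CT8 and CT32. It was still at 734 and 821 CPM at CT12 and CT36, then at 2130.1 and 1975 CPM at CT16 and CT40. The mice of CT16 and CT40 stood above all others. The log2 change from CT12 to CT16 was 1.39 ± 0.12 (adjusted p = 0.024). Hyou1, an ER cochaperone, was at 117 and 128 CPM at CT12 and CT36 and at 336 and 348 CPM at CT16 and CT40 (log2 change 1.47 ± 0.09). Manf, a secreted ER stress protein, changed by 1.54 ± 0.11 and Xbp1, the UPR transcription factor, by 0.72 ± 0.08.

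The list's median log2 fold change of early night over day was 0.06, its median change from CT12 to CT16 was 0.36, and that of all genes was 0.00 in both. Between the windows, 3 members were higher without overlap in either cycle, 6.38% of those tested against 6.45% of all genes, and 1 was lower. Herpud1, a component of ER-associated degradation, was 1 of the 3 and was at 66.3, 76.9, 64.9 and 87.2 CPM in day and 104.5, 158, 113 and 144 CPM in early night (log2 fold change 0.83 ± 0.15, time-of-day adjusted p = 0.0062). The CT16 mouse with its hepatocyte genes is 1 of the pair at that time of day, and their part in the values of the list was not tested.

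**Figure D3:**
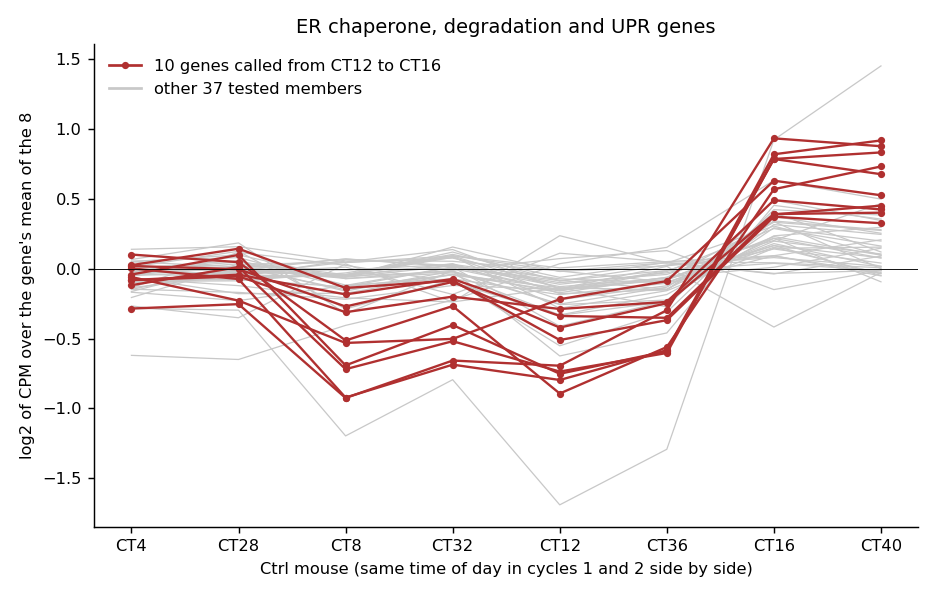
Log2 of the CPM of each ER gene over its mean of the 8 Ctrl mice (vertical axis), with mice of the same time of day in cycles 1 and 2 side by side (horizontal axis). Red lines are the 10 genes called from CT12 to CT16 and grey lines the other 37 tested members. All red lines are higher at CT16 and CT40 than at CT12 and CT36, the step by which these genes were chosen.

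Heat shock chaperones of the cytosol and mitochondria were higher in early night in 9 of 28 tested members without overlap in either cycle and lower in 0. The shares over all genes are 6.45% and 6.05%, and none of these members passed the window test. Chordc1, Ahsa1, Ahsa2 and Stip1, all cochaperones or activators of HSP90, had a time-of-day adjusted p under 0.05 and rose, as did 0.417% of all genes. Hspa8, the constitutive HSP70, was at 1336, 1274, 1485 and 1505 CPM in day and 1570.3, 2123, 1649.6 and 2054 CPM in early night (log2 fold change 0.41 ± 0.11, adjusted p = 0.21). Dnaja1, its J-domain partner, was at 169.7, 194, 195 and 182 CPM and 214, 241, 216 and 221 CPM. The inducible Hspa1a and Hspa1b, near-identical copies between which reads are hard to divide, were at 10.1, 12.8, 7.94 and 7.09 CPM and 5.18, 10.9, 4.05 and 4.16 CPM in early night, with the highest value of each at CT16. Their day values were 5.33, 5.88, 6.03 and 6.75 CPM and 3.22, 2.58, 2.84 and 2.15 CPM. Hsph1, an HSP110 cochaperone, rose by 0.84 ± 0.09 from CT12 to CT16.

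Glucocorticoid-induced genes, a list that includes Sult1a1 and Per1, were higher without overlap in 8 of 24 tested members and lower in 0, against 6.45% and 6.05% of all genes. Like the other lists, it was chosen with earlier results of these data known, so these shares describe its members and are no test. The median log2 fold change was 0.52, with 0.68 in cycle 1 and 0.44 in cycle 2, against 0.00 over all genes. 4 members, Sult1a1, Per1, Tsc22d3 and Plin4, had a time-of-day adjusted p under 0.05 and rose, as did 0.417% of all genes. Tsc22d3, which encodes the glucocorticoid-induced leucine zipper GILZ, was at 16.2 at CT4, 19.9 at CT8, 15.8 at CT28 and 19.2 at CT32 CPM in day. It was at 40.1 at CT12, 37.3 at CT16, 45.9 at CT36 and 31.3 at CT40 CPM in early night, with the CT40 mouse the lowest of the 4. The log2 fold change was 1.13 ± 0.13 (adjusted p = 0.064, time-of-day adjusted p = 0.0062), and without CT4 and CT16 it was 1.11 with an adjusted p of 0.036. Its late night values, 16.7, 26.2, 15.1 and 31.3 CPM at CT0, CT20, CT24 and CT44, were at or below 16.7 CPM at CT0 and CT24.

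Plin4, a lipid droplet coat protein, was at 9.62, 13.4, 9.22 and 10.1 CPM in day and 21.1, 21.4, 21.5 and 15.7 CPM in early night (log2 fold change 0.93 ± 0.14, time-of-day adjusted p = 0.041). Fkbp5, a cochaperone of the glucocorticoid receptor, was at 10.5, 11.2, 8.03 and 9.77 CPM in day and 26.3, 20.6, 27.3 and 8.66 CPM in early night. Its mouse of CT40 lay within the day range while the other 3 night mice were at least 20.6 CPM (time-of-day adjusted p = 0.16). Nfkbia, the inhibitor of NF-kB, was at 18.8, 18.9, 19.5 and 21.0 CPM and 24.7, 24.0, 26.1 and 23.8 CPM, and Ddit4, an inhibitor of mTORC1 signalling, was at 10.8, 9.30, 9.83 and 10.6 CPM and 13.7, 14.9, 12.7 and 14.1 CPM. Both were free of overlap, with adjusted p of 0.1 and 0.1 in the window fit and 0.058 and 0.063 in the other. Pdk4, a kinase that inhibits pyruvate dehydrogenase, and Bcl6, a transcriptional repressor, were also without overlap, with log2 fold changes of 0.39 ± 0.10 and 0.57 ± 0.10.

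Among transporters, 2 of 35 tested members were higher and 4 lower without overlap in either cycle, shares of 5.71% and 11.4% against 6.45% and 6.05% of all genes. Slc22a8, the organic anion transporter OAT3 that clears anions from cerebrospinal fluid, was at 62.01, 60.8, 56.4 and 66.5 CPM in day and 84.2, 95.5, 79.2 and 81.7 CPM in early night, and the groups did not overlap. Its log2 fold change was 0.48 ± 0.07 (adjusted p = 0.085, time-of-day adjusted p = 0.046). Slc20a2, a sodium-phosphate cotransporter, was at 197, 172, 198 and 173 CPM in day and 126, 134, 140.4 and 125 CPM in early night. All night mice were below all day mice, with a log2 fold change of -0.49 ± 0.07 (adjusted p = 0.085, time-of-day adjusted p = 0.02). Ion pumps, cotransporters and carbonic anhydrases, the machinery of fluid secretion, had no member higher and 2 of 27 lower, 7.41% against 6.05% of all genes. Aqp1, the apical water channel, was at 467, 545, 474 and 601 CPM in day and 463, 358, 506 and 353 CPM in early night, with the lowest mice at CT16 and CT40 (time-of-day adjusted p = 0.069).

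Ttr, the thyroxine carrier and the transcript with the highest CPM in the day mice, had a log2 fold change of 0.07 ± 0.12. Wnt5b, a WNT ligand, was at 2.84, 3.21, 2.82 and 3.80 CPM in day and 8.64, 6.65, 9.12 and 4.56 CPM in early night (log2 fold change 1.21 ± 0.23, time-of-day adjusted p = 0.036). Sfrp5, a secreted WNT antagonist, was at 20.1, 29.5, 21.4 and 39.6 CPM and 45.0, 45.4, 47.3 and 41.1 CPM (time-of-day adjusted p = 0.039). Cntfr, the receptor subunit for ciliary neurotrophic factor, was at 16.7, 13.6, 11.4 and 13.2 CPM in day and 36.9, 39.9, 34.2 and 20.1 CPM in early night, with no overlap and a log2 fold change of 1.27 ± 0.21 (adjusted p = 0.1). Ccn2, a matricellular growth factor, Ghr, the growth hormone receptor, Fmo2, a monooxygenase, and Neu2, a sialidase, were also higher without overlap, with log2 fold changes of 0.60 ± 0.12, 0.34 ± 0.09, 1.35 ± 0.31 and 1.28 ± 0.33. Of these 4, only Neu2 passed a test (time-of-day adjusted p = 0.023). Lpl, lipoprotein lipase, was at 18.8, 11.4, 17.9 and 5.97 CPM in day and 5.58, 6.13, 5.63 and 3.37 CPM in early night, with both night mice below both day mice in each cycle and a log2 fold change of -1.37 ± 0.36 (adjusted p = 0.2).

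Npnt, an integrin ligand of the basement membrane, had the lowest p among the genes that fell in the time-of-day fit. It was at 56.3, 54.4, 67.1 and 54.6 CPM in day and 31.0, 24.9, 34.9 and 22.3 CPM in early night. The night values were all below the day values, and the log2 fold change was -1.03 ± 0.15 (adjusted p = 0.085, time-of-day adjusted p = 0.0062). Gabrb1 and Gabra4, subunits of the GABA-A receptor, were at 38.8, 35.0, 32.0 and 29.2 CPM and 23.2, 19.6, 19.7 and 16.0 CPM in day. In early night they were at 19.1, 21.6, 19.1 and 16.3 CPM and 11.2, 12.7, 12.0 and 11.9 CPM, without overlap (time-of-day adjusted p = 0.046 and 0.038). Nt5e, the ecto-5'-nucleotidase CD73 that makes adenosine, was at 44.3, 41.3, 44.4 and 37.1 CPM in day and 25.5, 30.9, 25.7 and 24.9 CPM in early night (time-of-day adjusted p = 0.033). Tfrc, the transferrin receptor, was at 34.5, 26.8, 25.9 and 20.1 CPM and 12.0, 17.8, 12.6 and 15.3 CPM, with a log2 fold change of -0.89 ± 0.18 and a time-of-day adjusted p of 0.05. Markers of red blood cells, which can also carry Tfrc as precursors, summed to 1037 to 1434 CPM in day and 301 to 1546 CPM in early night, and their part in the Tfrc result was not tested.

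Pcbp3, a poly(C)-binding RNA protein, had the second smallest p of the window fit. It was at 69.3, 82.4, 72.1 and 82.2 CPM in day and 113, 112, 123 and 121 CPM in early night (log2 fold change 0.63 ± 0.07, adjusted p = 0.058, time-of-day adjusted p = 0.0062). Tra2a, a splicing activator, was at 36.6, 39.9, 41.7 and 37.6 CPM in day and 56.5, 89.1, 58.5 and 96.4 CPM in early night, highest at CT16 and CT40 (log2 fold change 0.92 ± 0.06, time-of-day adjusted p = 0.0062). Over the list of splicing factors, 8 of 36 tested members were higher without overlap and 2 lower, 22.2% and 5.56% against 6.45% and 6.05% of all genes, with a median log2 fold change of 0.07. Plk5, a polo-like kinase, was at 14.04, 20.8, 13.4 and 24.0 CPM in day and 39.1, 29.6, 35.7 and 32.8 CPM in early night (time-of-day adjusted p = 0.0062).

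Transcripts encoded in the mitochondrial genome were lower in early night in 10 of 13 genes without overlap in either cycle, against 6.05% of all genes, their median log2 fold change being -0.55, and none passed a test. These genes are transcribed as long joint RNAs and do not vary independently. mt-Nd1, a subunit of complex I, was at 8499, 7849, 5564 and 6605 CPM in day and 4949.7, 6094, 3626 and 3993 CPM in early night. Its levels were lower in the second cycle than in the first in both windows, and the night mouse of CT16 exceeded the day mouse of CT28. mt-Co1, a subunit of complex IV, had a log2 fold change of -0.50 ± 0.22 (adjusted p = 0.37). Respiratory chain subunits encoded in the nucleus had a median log2 fold change of 0.00 over 84 genes, cytosolic ribosomal proteins -0.03 over 79, motile cilia genes -0.06 over 32 and proteasome subunits 0.03 over 37.

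**Figure D4:**
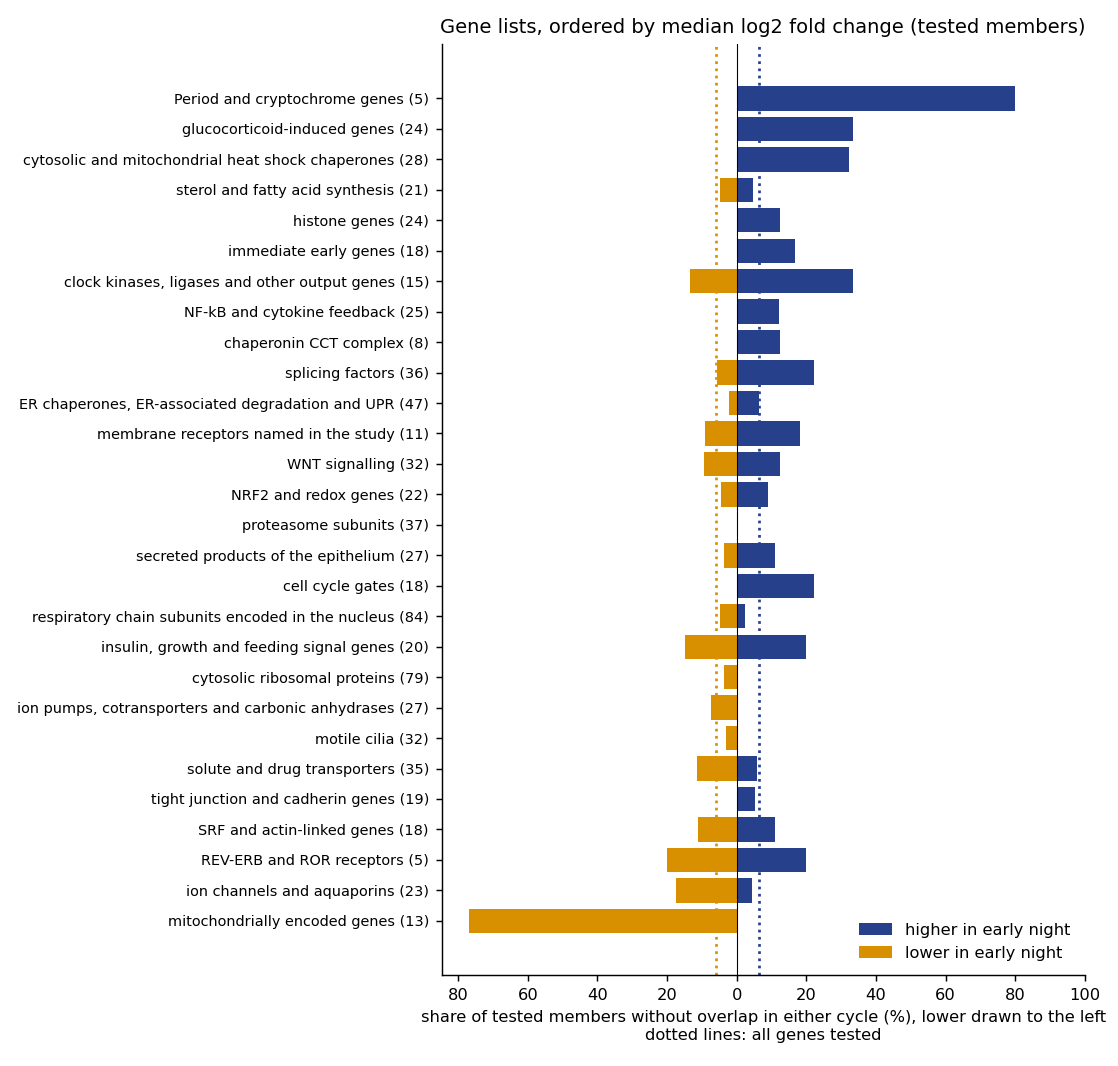
Share of the tested members of clock and function lists (number in brackets) with both night mice above both day mice in each cycle (blue, to the right) or below (orange, to the left), in percent. Lists with few tested members are not drawn. These are the clock activators, E-box repressors, PAR bZIP factors with Nfil3 and cold-inducible RNA-binding proteins, and they held no member without overlap. Dotted lines mark the shares over all 13893 genes, 6.45% and 6.05%, and lists run from the highest median log2 fold change at the top to the lowest. The longest blue bar, 80.0%, is that of the Period and cryptochrome genes and the longest orange bar, 76.9%, that of the mitochondrially encoded genes.

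In SCNx mice of the same times, no gene passed edgeR's test between the windows, with 1966 of 14046 at an unadjusted p under 0.05, and DESeq2 called 25 and limma-voom 0. The difference of the contrast between Ctrl and SCNx passed the test in 3 genes, 0.0214% of those tested. They were Sult1a1, Tsc22d3 and Slc20a2. Sult1a1 was at 23.4, 23.8, 25.0, 17.7, 22.2, 23.5, 22.8 and 20.7 CPM in SCNx at CT4, CT8, CT28, CT32, CT12, CT16, CT36 and CT40. The SCNx windows overlapped, and the contrast was 0.91 ± 0.13 log2 units larger in Ctrl (adjusted p = 0.038). Tsc22d3 was at 26.8, 24.1, 18.7, 29.1, 22.9, 19.7, 20.3 and 21.6 CPM in SCNx in the same order, with a difference of 1.35 ± 0.19 (adjusted p = 0.038). Slc20a2 ranged over 143 to 171 CPM in SCNx, and its contrast differed by -0.61 ± 0.09 (adjusted p = 0.044). DESeq2 called 103 genes for this difference, limma-voom 8 and edgeR without Ctrl CT4 and CT16 5, all negative. None of those 5 was Sult1a1, Tsc22d3 or Slc20a2, whose differences were then 0.90 ± 0.14 (adjusted p = 0.0505), 1.32 ± 0.21 (adjusted p = 0.0575) and -0.59 ± 0.10 (adjusted p = 0.0803). Leaving out 1 library gave 13 calls without SCNx CT28, 9 without SCNx CT32, 4 without Ctrl CT36, 2 without Ctrl CT40 and 0 without any of the other 12.

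With a mean per time of day in each group, 24 genes differed in their contrast, 0.171% of those tested. This fit was chosen after the data had been seen, and it was not repeated with libraries left out or with another tool. Per2, Cry1, Per3, Tsc22d3, Per1, Wnt5b and Sult1a1 were among the 12 with the more positive contrast in Ctrl, by 2.17 ± 0.25 for Per2 and 1.35 ± 0.16 for Cry1. Npnt, by -1.34 ± 0.13, Nt5e and Slc20a2 were among the 12 with the more negative one. Per2 ranged over 17.4 to 40.6 CPM in SCNx and Npnt over 28.8 to 55.4 CPM. For Herpud1, Slc22a8 and Gabrb1 the difference was not past the threshold, with adjusted p of 0.32, 0.65 and 0.89. The median log2 contrast of the glucocorticoid-induced genes was -0.10 in SCNx and that of the Period and cryptochrome genes -0.24. For the heat shock chaperones it was 0.24 in SCNx and 0.19 in Ctrl, and for the ER list 0.15 and 0.06. Gabrb1 was at 28.3, 19.2, 30.3, 80.5, 25.8, 27.7, 20.5 and 27.3 CPM in SCNx at CT4, CT8, CT28, CT32, CT12, CT16, CT36 and CT40, with the highest value at CT32, the mouse with 1054 CPM of astrocyte markers.

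**Figure D5:**
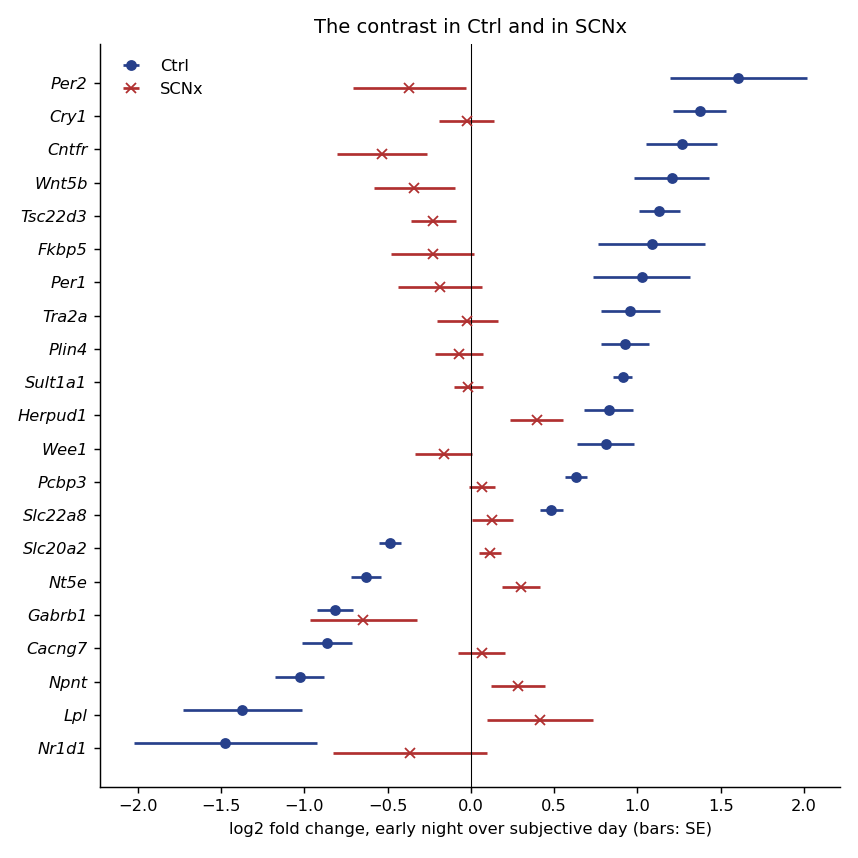
Log2 fold change of early night over subjective day (horizontal axis, bars are SE) for 21 genes in Ctrl (blue points, n = 4 per window) and SCNx (red crosses, n = 4 per window). Ctrl values are from the fit of the Ctrl libraries alone and SCNx values from the joint fit of both groups, so their SE are not comparable. The 3 genes whose difference passed the test, which was made in the joint fit, are Sult1a1, Tsc22d3 and Slc20a2.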

How the data were processed

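Choroid plexus RNA of single mice was sequenced as single-end reads. Per the study's methods and the labels, the authors trimmed reads with cutadapt 3.4, aligned them with STAR to GRCm39 and deposited estimated counts per gene from Salmon 1.9.0 for 55416 genes, not scaled to library size. Estimated counts divide reads between near-identical genes, so members of such families are uncertain.

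The estimated counts were rounded and scaled with TMM (factors 0.954 to 1.05), and genes with a mean of at least 1 CPM over the libraries of a fit were tested with edgeR 4.0.16 (R 4.3.3), a quasi-likelihood F test, two-sided, with Benjamini-Hochberg adjustment over all genes tested and a threshold of 0.05. The window fit took the 8 Ctrl libraries, and fits with a mean per cycle and window, or per group and window with the 8 SCNx libraries, gave the other contrasts. Each library was 1 mouse, so p-values rest on the spread between mice sampled at different times. The fit with a mean per time of day and its steps were chosen after seeing the data. DESeq2 1.42.0 (Wald test) and limma-voom (limma 3.58.1) were alternatives, together with other filters, left-out libraries and other terms. "Without overlap" means that both night mice lie above, or below, both day mice of the same cycle, in each cycle, on CPM.

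Members and gene lists were chosen with earlier results of these data known. Named genes were all clock genes, the top calls by p, fold change and level, the 3 called genes with the smallest p in each function list and genes the study names. With 1 call, most others were named after their values were seen. The scripts were tested on simulated data. Promoter sequences are RefSeq's on GRCm38.p6, and coordinates on the build of the counts were not used here. The Bmal1 knockout libraries, 1 mouse at each of 2 times, were not used here. Some genes are not reported here.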

Additional observations from a re-analysis of the deposited data

Results flagged for a closer look

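In 170 groups of 4 mice, single mice were searched for that stood apart by Dixon's test, which chance alone does in about 1 of 20 groups. For marker sums, the CT16 mouse held 4161 CPM of hepatocyte genes (other night mice 20.8 to 79.3) and 3.45 CPM of granulocyte markers (0.872 to 1.01). The CT4 mouse held 464 CPM of neuron and cerebellum markers (other day mice 131 to 137), 787 CPM of astrocyte markers (45.0 to 65.01) and 83.6 CPM of ependymal markers (75.5 to 76.6). T and B cell markers summed to 0.883 CPM at CT8 (2.32 to 2.54).

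Among the genes, Hspa1b was at 10.9 CPM at CT16 (other night mice 4.05 to 5.18) and Nt5e at 30.9 CPM at CT16 (24.9 to 25.7). Plin4 was at 15.7 CPM at CT40 (21.1 to 21.5). In the day group, Nr1d1 was at 92.9 CPM at CT8 (72.2 to 73.9), and Zfp36, which encodes an mRNA decay factor, was at 10.8 CPM at CT32 (9.25 to 9.46). At CT28, Npnt was at 67.1 CPM (54.4 to 56.3) and Hs3st1, a heparan sulfate sulfotransferase, at 34.3 CPM (31.1 to 31.2).

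The contrast of early night over day differed between Ctrl and SCNx mice for Sult1a1 by 0.91 ± 0.13 on the log2 scale, for Tsc22d3 by 1.35 ± 0.19 and for Slc20a2 by -0.61 ± 0.09, in the interaction test of edgeR (adjusted p = 0.038, 0.038 and 0.044). None of the 3 passed without both CT4 and CT16 of Ctrl (adjusted p = 0.0505, 0.0575 and 0.0803). All 3 calls are absent when any of 12 of the 16 libraries is left out.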

How the results depend on the processing

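The 1 call between the windows, whose mice do not overlap in either cycle, became 438 (394 of them without overlap) with DESeq2, 2 with limma-voom, 4 with robust quasi-likelihood, a mean CPM of at least 5 or 1 CPM in 4 libraries, 8 without a filter, 52 without CT4 and CT16, 26 with all 24 libraries and 3 with a term for the number in the column names. With a mean per time of day, chosen after seeing the data, it was 94 (78 without overlap), 331 (288) without CT4 and CT16, 642 (409) with DESeq2 and 54 (47) with limma-voom. Leaving out 1 library gave 1 to 18 calls with window means and 0 to 253 (0 to 167 without overlap) with times of day.

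Within cycles 1 and 2 and for their difference, DESeq2 gave 148, 151 and 2 calls and no filter gave 17, 37 and 3, against 0. Cycle 2 gave 11 without CT4 and CT16. Leaving out 1 library gave 0 to 396, 0 to 1 and 0 to 69. SCNx gave 25 with DESeq2. The 3 calls of the difference from SCNx became 103 with DESeq2, 8 with limma-voom, 5 others without CT4 and CT16, which lost all 3, 24 with times of day, 1 without a filter, with a cycle term or with all 24 libraries, and 0 to 13 with 1 library left out. The steps CT4 to CT8, CT8 to CT12 and CT12 to CT16 gave 6, 34 and 78 calls without CT4 and CT16 and 300, 171 and 331 with DESeq2, limma-voom gave 6 in the first, and leaving out 1 library gave 0 to 600, 0 and 0 to 228. The causes were not tested.

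Uncalled fold changes near 0 turned sign for Dbp (-0.10 to 0.56 with 1 library left out), Bhlhe41 (-0.40 to 0.035, and 0.18 with the number term) and Sdf2l1 (-0.0065 to 0.49, and -0.20 with the number term). Of the values for named genes under the alternatives, 1930 kept direction and side of the threshold, 326 came to pass it, 4 ceased to and 9 turned sign. No paired analysis was possible because replicate numbers were given in accession order and pair no mice, and a term for the cycle left 1 call. With 1 mouse per time point and 2 per time of day, small changes may be missed.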
